A study of Mus musculus with 6 samples.

Results

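The Asb genes encode ankyrin repeat and SOCS box proteins, and the Klhl and Kbtbd genes encode proteins with a BTB domain followed, in nearly all of them, by Kelch repeats. They were taken as every row of the count table whose Ensembl identifier has a mouse symbol made of Asb, Klhl or Kbtbd and digits, which gave 63 genes of 51911, namely 18 Asb, 36 Klhl and 9 Kbtbd. The set was chosen by the log2 fold changes of these same libraries, since many Asb genes were already seen to be lower in transgenic muscle. For this reason the differences between genotypes below describe the members and carry no test of the set.

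The libraries were made from RNA of gastrocnemius muscle of male mice. One group of mice was HSA-PGC-1a3 transgenic, meaning that the human skeletal actin promoter, active in skeletal muscle fibres, drove PGC-1alpha3, one of the isoforms of PGC-1alpha, a coactivator of transcription. They were compared with wild-type mice, with 3 libraries of each genotype. The labels give no age, strain or number of animals per library, so the spread below is the spread between libraries, which may be technical.

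Both kinds of protein are substrate-binding parts of cullin-RING ubiquitin ligases. An Asb protein binds elongin B and elongin C through its SOCS box and is held by the scaffold Cul5, and a Kelch protein binds Cul3 directly through its BTB domain. The scaffold carries a RING protein that recruits a ubiquitin-loaded enzyme, and attachment of the small protein Nedd8 switches the complex on. In striated muscle several of these adaptors are abundant. Asb2 directs the breakdown of filamins and desmin, and Klhl40, Klhl41 and Kbtbd13 are the mouse counterparts of human genes in which mutations cause nemaline myopathy, a congenital disease with protein rods in the fibres.

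The stretches of promoter that follow are shown because each holds a match to the MEF2 consensus, the recognition sequence of the muscle transcription factors of that name, in a member that was lower in the transgenic libraries. They are RefSeq sequences of GRCm38.p6, printed along the strand of the gene, with the match in capitals and no base beyond the annotated start of the transcript. The stretches of Asb5, Asb12 and Kbtbd12 precede an inner start and lie within the span of the gene in GENCODE, outside its exons, and the others lie just before the first base of the gene.

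Asb5 (chr8:54571333-54571392, plus strand): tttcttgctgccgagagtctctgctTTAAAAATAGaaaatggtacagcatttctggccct
Asb12 (chrX:95478143-95478202, minus strand): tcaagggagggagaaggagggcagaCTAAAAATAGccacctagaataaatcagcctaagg
Asb16 (chr11:102268668-102268727, plus strand): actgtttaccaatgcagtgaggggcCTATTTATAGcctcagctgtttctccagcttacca
Asb18 (chr1:90014667-90014702, minus strand): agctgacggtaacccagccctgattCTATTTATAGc
Kbtbd12 (chr6:88627486-88627545, minus strand): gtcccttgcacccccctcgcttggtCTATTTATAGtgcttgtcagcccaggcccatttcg
Klhl33 (chr14:50897508-50897558, minus strand): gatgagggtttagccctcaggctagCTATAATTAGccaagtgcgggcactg
Klhl41 (chr2:69670032-69670091, plus strand): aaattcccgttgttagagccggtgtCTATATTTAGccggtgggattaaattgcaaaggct

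The promoter of Asb10, the tested Asb gene above 1 CPM with the lowest log2 fold change, is shown whole for contrast, since it holds no MEF2 match. Its capitals mark the single E-box (CANNTG), the core sequence read by myogenic factors such as MyoD, which starts 102 bases before the transcript start.

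Asb10 (chr5:24540979-24541228, minus strand): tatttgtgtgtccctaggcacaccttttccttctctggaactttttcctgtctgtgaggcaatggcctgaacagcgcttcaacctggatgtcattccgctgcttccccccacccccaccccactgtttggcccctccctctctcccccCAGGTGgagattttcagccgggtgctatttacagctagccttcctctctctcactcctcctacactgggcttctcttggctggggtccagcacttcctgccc

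Depth was 26190221 to 32593108 counts in the transgenic libraries and 25532146 to 40846872 in the wild-type libraries. Ppargc1a, which encodes the isoform, stood at 3068, 2431 and 3231 CPM (counts scaled to library size with TMM factors) in the transgenic libraries and 51.2, 53.0 and 53.3 CPM in the wild-type libraries, so each label matched its library, although counts per gene do not separate transgene from endogenous transcript. Of 21782 genes with at least 10 counts summed over the libraries, 8400 (38.6%) passed an adjusted p of 0.05 in edgeR's quasi-likelihood test, 4313 (19.8%) lower and 4087 (18.8%) higher in the transgenic muscle. The scale matters here: TMM factors were 1.15 to 1.16 in the transgenic and 0.835 to 0.883 in the wild-type libraries. Scaled by library totals alone, the log2 fold changes of all tested genes had a median of 0.41, against -0.0012 with TMM. Every difference below is on the TMM scale unless a sentence says otherwise.

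Myofibre markers were abundant in every library: none of the 14 myofibre markers was below 67125 counts in any library. Their summed level was 116135 to 117454 CPM in the transgenic libraries and 220851 to 238434 CPM in the wild-type libraries, and 12 of 14 were called lower (9 lower and 1 higher with totals alone). All 10 endothelial markers and all 8 mural cell markers were also called lower, with sums of 419 to 438 CPM and 641 to 705 CPM in the transgenic libraries, against 534 to 578 CPM and 1014 to 1101 CPM in the wild-type libraries (1 of 10 and 4 of 8 with totals alone). No marker of either vascular list was at 0 in any library. Of 8 fibroblast markers 3 were lower (0 lower and 2 higher with totals alone), with sums of 944 to 1094 CPM in the transgenic and 1113 to 1319 CPM in the wild-type libraries. Of 6 satellite cell markers 1 was lower and 2 higher (0 and 5 with totals alone, when Cdh15, the lower one, was called higher). Slow-fibre markers summed to 1337 to 2913 CPM in the transgenic and 909 to 2194 CPM in the wild-type libraries, with 1 of 9 lower (1 lower and 2 higher with totals alone), and replicate 2 was the highest library of each genotype. Of the adipocyte markers 1 of 8 was lower (0 with totals alone), of the macrophage markers 1 of 8 was higher, and of 7 Schwann cell markers 0 passed in edgeR, with 0 at an unadjusted p under 0.05. The part of these cell types in the differences described here was not tested. In bulk tissue, fewer cells of a type and less RNA per cell cannot be told apart.

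Of the 63 members, 59 had the 10 summed counts needed for a test. Asb9, whose human counterpart binds creatine kinase B, had 1 count, Klhl1 had 1, Klhl14 had 4 and Kbtbd6 had 5. In addition, 14 members share exonic bases with another gene (3 Asb, 8 Klhl and 3 Kbtbd), whose fragments were then counted for both. Just inside the limit were Asb17 with 16 summed counts, Klhl32 with 25 and Klhl35 with 27. Among the 59, 22 were called lower and 15 higher, and 22 were not called. By family, 12 of 17 Asb genes were lower and 4 higher, 8 of 34 Klhl genes were lower and 9 higher, and 2 of 8 Kbtbd genes were lower and 2 higher, beside 19.8% lower and 18.8% higher among all genes. The median log2 fold change was -0.59 for Asb, -0.03 for Klhl and -0.01 for Kbtbd, beside -0.0012 for all genes. With totals alone these medians were -0.17, 0.38, 0.40 and 0.41, so the Klhl and Kbtbd medians change sign with the scale. Both lay near 0, and other settings also turned them. The Klhl median was above 0 without transgenic replicate 1 (0.05) or wild-type replicate 3 (0.01). The Kbtbd median was above 0 without transgenic replicate 1 (0.02) or 2 (0.07), and above 0 by at most 0.015 with DESeq2 size factors, DESeq2, filterByExpr or at least 1 CPM in 3 libraries. CPM of all 3 transgenic libraries lay below all 3 wild-type libraries for 25 members and above them for 16, beside 24.8% below and 24.9% above (49.7% in either direction) among all genes. Where genes called by edgeR are said below not to overlap, this describes their libraries beside that share and adds no test.

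Counted per kilobase of exon, which allows genes to be compared, 2 genes made up much of the adaptor transcripts. Asb2 (chromosome 12, 103321142 to 103356001, GRCm38, as for all coordinates here) averaged 185 ± 9.12 CPM per kilobase in transgenic and 248 ± 21.3 in wild-type muscle (SD, n = 3 each). It supplied 40.4% to 41.3% of the summed Asb level in the transgenic and 34.4% to 37.0% in the wild-type libraries. Klhl41 (chromosome 2, 69670120 to 69684230) averaged 256 ± 19.4 CPM per kilobase in the transgenic and 305 ± 27.96 in the wild-type libraries, which was 46.4% to 49.8% and 44.7% to 46.4% of the Klhl sum. The whole Asb family summed to 433, 465 and 457 CPM per kilobase in transgenic muscle, against 674, 735 and 684 in wild-type muscle. The Klhl family summed to 558, 521 and 532 in transgenic muscle, against 624, 720.3 and 660.1 in wild-type muscle. Kbtbd transcripts were a small fraction, with 33.5, 35.3 and 35.6 CPM per kilobase in the transgenic and 36.2, 38.1 and 37.9 in the wild-type libraries. In all 3 families the transgenic sums lay below the wild-type sums on this scale. With library totals alone the Asb sums were still lower, at 502, 537 and 524 in transgenic muscle, against 595, 614 and 603 in wild-type muscle. For Klhl the order then turned, at 647, 602 and 611 in transgenic muscle, against 551, 602 and 582 in wild-type muscle, the closest libraries nearly touching. It turned for Kbtbd as well, with 38.8, 40.8 and 40.8 in transgenic muscle, against 31.97, 31.8 and 33.5 in wild-type muscle.

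**Figure D1:**
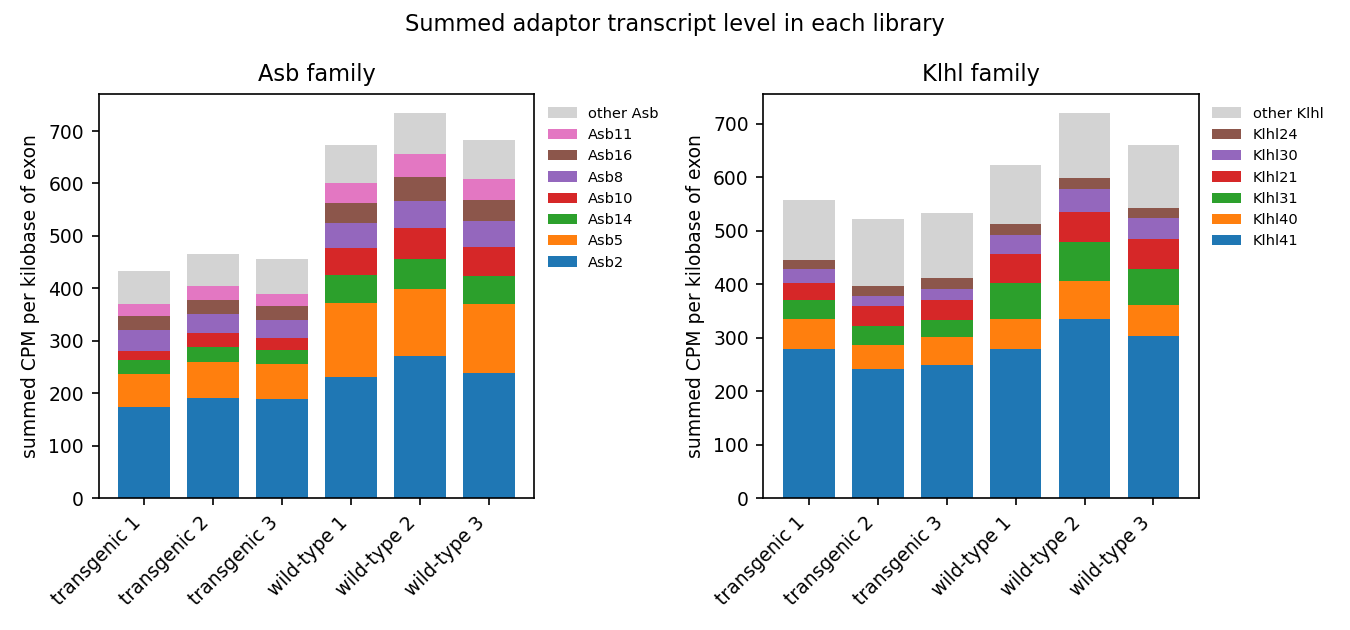
Summed level of the Asb (left) and Klhl (right) genes in each library, in CPM per kilobase of exon, with the most abundant genes as coloured parts of each bar. The Asb bars reach 433 to 465 in the transgenic and 674 to 735 in the wild-type libraries, Asb2 and Klhl41 being the largest parts, on the TMM scale; with totals alone the transgenic Klhl sums are the higher ones.

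Asb10, Asb5, Asb4 and Asb14 showed the largest downward differences of the Asb genes above 1 CPM, each about 2-fold or more. Asb10 (chromosome 5, 24532697 to 24540978), whose human counterpart has been studied in glaucoma, stood at 52.8, 70.8 and 62.2 CPM in the transgenic libraries and 145, 167 and 156 CPM in the wild-type libraries. Its log2 fold change was -1.33 (SE 0.10), or 2.52-fold lower. The genotypes were well apart, although the transgenic libraries had the widest spread of any Asb gene above 1 CPM, with a coefficient of variation of 14.5%. Asb5 (chromosome 8, 54529580 to 54587842), first described in growing collateral arteries of rabbits and sharing 75 exonic bases with Spcs3, had 114, 123 and 125 CPM in the transgenic and 259.8, 235 and 242 CPM in the wild-type libraries, a log2 fold change of -1.02 (SE 0.06). Asb14 (chromosome 14, 26894557 to 26915258) had 66.5, 76.4 and 66.4 CPM in the transgenic and 135, 143 and 135 CPM in the wild-type libraries, with a log2 fold change of -0.98 (SE 0.07). Both genes showed little spread within a genotype. Asb4 (chromosome 6, 5383386 to 5433022), an imprinted gene in the mouse, was far less abundant per length than these 3 but differed by about as much as Asb5 and Asb14, at 10.4, 10.8 and 12.4 CPM in the transgenic and 23.4, 21.05 and 22.7 CPM in the wild-type libraries and a log2 fold change of -0.996 (SE 0.09).

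A second tier differed by less than 2-fold. Asb12 on the X chromosome had 19.5, 18.5 and 20.2 CPM in the transgenic and 31.3, 35.7 and 36.1 CPM in the wild-type libraries, a log2 fold change of -0.83 (SE 0.08). Asb11, another X-linked gene, whose zebrafish counterpart acts on the Notch ligand DeltaA, had 61.97, 73.2 and 62.7 CPM in the transgenic and 109.8, 125 and 115 CPM in the wild-type libraries, a log2 fold change of -0.82 (SE 0.08). The genotypes did not overlap for either gene. Asb18 had 28.2, 24.4 and 25.3 CPM in the transgenic and 41.6, 41.4 and 39.4 CPM in the wild-type libraries, a log2 fold change of -0.65 (SE 0.07). For Asb16 the values were 79.6, 78.2 and 76.3 CPM in the transgenic and 109, 129 and 113 CPM in the wild-type libraries, with a log2 fold change of -0.59 (SE 0.07). The transgenic libraries of Asb16 lay within a few CPM of each other, while the wild-type libraries spread more.

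The 3 smallest downward calls in the family depended on the scale. Asb2 stood at 619.5, 681 and 668 CPM in the transgenic and 821, 963 and 847 CPM in the wild-type libraries, a log2 fold change of -0.42 (SE 0.07). Asb8 had 92.9, 87.8 and 86.5 CPM in the transgenic and 113, 125 and 119 CPM in the wild-type libraries, with a log2 fold change of -0.42 (SE 0.06). Asb13, whose human counterpart targets the transcription factor SNAI2, had 17.04, 22.2 and 19.01 CPM in the transgenic and 27.03, 27.1 and 24.5 CPM in the wild-type libraries, a log2 fold change of -0.43 (SE 0.10). None of the 3 overlapped between genotypes on the TMM scale. With library totals alone their log2 fold changes were -0.0037, -0.0025 and -0.02 in the same order and none was called. Asb17, known as a testis gene, had 0 counts in each transgenic library and 8, 6 and 2 counts in the wild-type libraries. With 3 counts allowed over the transgenic libraries together and the wild-type counts taken as exact, its bound was 6.59-fold lower. The 95% exact binomial interval of its scaled ratio, covering counting error only, was 0 to 0.21. Asb17 shares 112 exonic bases with its antisense gene, and the counting ignored strand, so the gene behind these few fragments cannot be told apart. Without wild-type replicate 1 Asb17 was below the limit of 10 counts, and the Asb median is the same whether Asb17 enters with its fitted value or its bound.

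Asb1, Asb3, Asb6 and Asb7 were higher in the transgenic muscle, each with 3 transgenic libraries above 3 wild-type libraries and with log2 fold changes in a narrow range. Asb6, which binds the insulin receptor adaptor APS, had 14.6, 12.6 and 14.1 CPM in the transgenic and 8.98, 11.3 and 8.57 CPM in the wild-type libraries, a log2 fold change of 0.51 (SE 0.11). Asb3, whose human counterpart binds the tumour necrosis factor receptor encoded by Tnfrsf1b, had 11.1, 11.8 and 11.9 CPM in the transgenic and 8.68, 7.62 and 8.39 CPM in the wild-type libraries, a log2 fold change of 0.50 (SE 0.10). Asb3 shares 127 exonic bases with Gpr75. Asb7 had 19.9, 17.8 and 19.3 CPM in the transgenic and 14.9, 12.5 and 14.1 CPM in the wild-type libraries, with a log2 fold change of 0.46 (SE 0.09). Asb1 had 32.3, 33.3 and 38.3 CPM in the transgenic and 24.3, 26.4 and 26.6 CPM in the wild-type libraries, with a log2 fold change of 0.43 (SE 0.08). Per kilobase these 4 genes were among the less abundant of the family, with transgenic means of 2.14 to 5.38 and wild-type means of 1.52 to 4.01 CPM per kilobase. Asb15, a striated muscle gene, was the sole tested Asb gene not called, with 108 to 124 CPM in the transgenic and 99.3 to 116 CPM in the wild-type libraries and a log2 fold change of 0.12 (SE 0.07). It was called higher with totals alone (0.54) and with no filter beyond 1 count in any library (0.18).

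**Figure D2:**
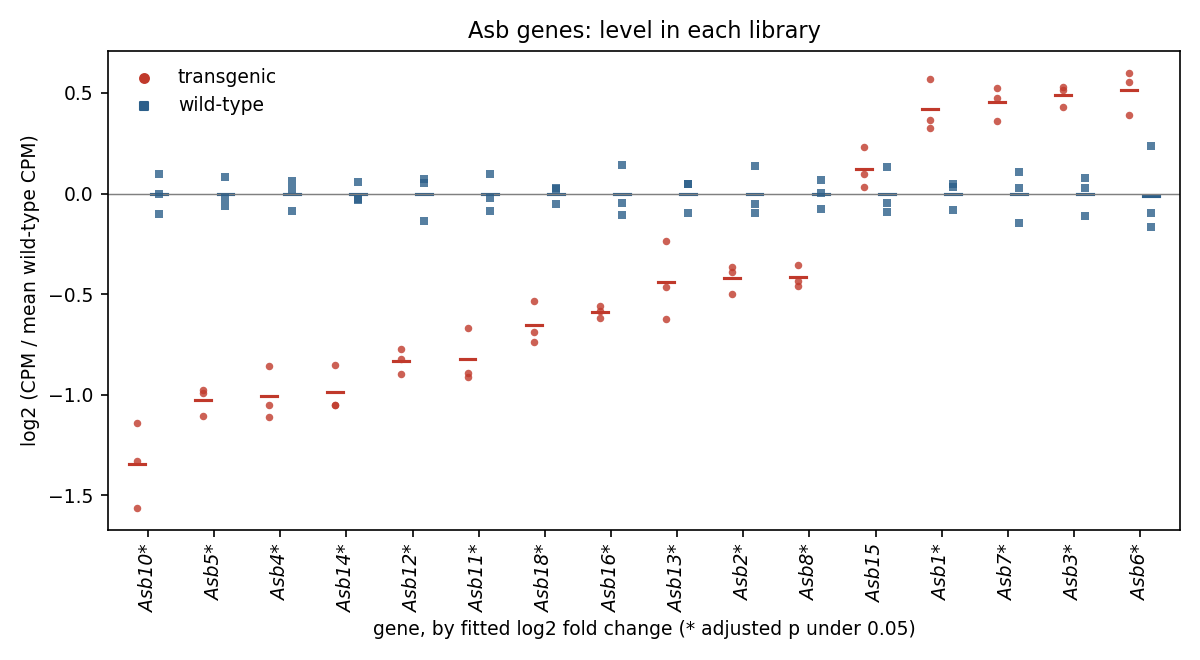
Level of each tested Asb gene in each library, as log2 of its CPM over the mean wild-type CPM, with genes ordered by fitted log2 fold change and short bars at the group means (Asb17, with 0 counts in the transgenic libraries, is left out). Transgenic libraries (circles) lie below every wild-type library (squares) for 11 of the 16 genes drawn and above for 4, on the TMM scale. Among all genes 24.8% lie below and 24.9% above in this way. With totals alone Asb2, Asb8 and Asb13 are not called.

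Among the Kelch genes known for muscle, Klhl31 showed the largest difference. Klhl31 (chromosome 9, 77636500 to 77660127), whose loss in mice causes a congenital myopathy, stood at 224, 221 and 206 CPM in the transgenic and 428, 474 and 436 CPM in the wild-type libraries. Its log2 fold change was -1.04 (SE 0.07), close to that of Asb5 and with as little spread. Klhl41 had 704, 611 and 629 CPM in the transgenic and 704, 846 and 768 CPM in the wild-type libraries, a log2 fold change of -0.25 (SE 0.08). Transgenic replicate 1 came within 1 CPM of wild-type replicate 1, and the call of Klhl41 ended when transgenic replicate 2 (-0.17) or 3 (-0.21) was left out, and likewise for wild-type replicate 2 (-0.19) or 3 (-0.26). With totals alone its sign turned (0.16, not called). Klhl40 (chromosome 9, 121777607 to 121783818), which stabilises nebulin and leiomodin-3, had 143, 114 and 131 CPM in the transgenic and 143, 180.3 and 146 CPM in the wild-type libraries, and the groups overlapped. Its log2 fold change of -0.28 (SE 0.11) was not called, although it was without transgenic replicate 1 (-0.31), with DESeq2 (-0.26) and with no filter beyond 1 count (-0.22). With totals alone the sign of Klhl40 turned (0.14, not called). Klhl40 shares 540 exonic bases with a gene on the other strand.

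The other Klhl genes called lower covered a wide range of levels. Klhl33 had 26.04, 26.7 and 30.6 CPM in the transgenic and 47.1, 55.5 and 50.4 CPM in the wild-type libraries, a log2 fold change of -0.88 (SE 0.08). Klhl30 (chromosome 1, 91351016 to 91362416) had 79.5, 58.6 and 66.5 CPM in the transgenic and 109.7, 130 and 118 CPM in the wild-type libraries, with a log2 fold change of -0.81 (SE 0.11). Klhl30 spread more within each genotype than Klhl33. Klhl34 had 15.2, 18.02 and 11.2 CPM in the transgenic and 20.5, 26.8 and 25.4 CPM in the wild-type libraries, a log2 fold change of -0.72 (SE 0.18), and its call ended without wild-type replicate 2 (-0.64). Klhl21, a mitotic adaptor for Aurora B, had 128, 152 and 149.8 CPM in the transgenic and 221, 224 and 224 CPM in the wild-type libraries, a log2 fold change of -0.64 (SE 0.07). The 3 wild-type libraries of Klhl21 were nearly level, and 817 of its exonic bases are shared with a gene on the other strand. Klhl7, whose human counterpart is a retinitis pigmentosa gene, had 32.3, 35.98 and 31.4 CPM in the transgenic and 46, 52.4 and 45.3 CPM in the wild-type libraries, a log2 fold change of -0.53 (SE 0.08). With totals alone neither Klhl7 (-0.11) nor Klhl34 (-0.30) was called. Klhl8 had 35.2, 36.7 and 37.7 CPM in the transgenic and 42.01, 45.1 and 39.1 CPM in the wild-type libraries, a log2 fold change of -0.20 (SE 0.07). That call ended when transgenic replicate 1 (-0.13) or 2 (-0.16) was left out, likewise wild-type replicate 1 (-0.21) or 2 (-0.15), and with totals alone Klhl8 was called higher (0.21). None of these 6 genes overlapped between genotypes on the TMM scale, beside 49.7% of all genes without overlap.

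Of the 9 Klhl genes called higher, Klhl23 and Klhl38 were the most abundant per length. Klhl23 (chromosome 2, 69821944 to 69836651) had 64.6, 69.9 and 68.9 CPM in the transgenic and 38.2, 40.2 and 44.8 CPM in the wild-type libraries, a log2 fold change of 0.73 (SE 0.07). Klhl38 had 42.3, 54 and 44.4 CPM in the transgenic and 29.2, 33.1 and 34.4 CPM in the wild-type libraries, with a log2 fold change of 0.54 (SE 0.10), and shares 1446 exonic bases with a gene on the other strand. Klhl38 was highest in transgenic replicate 2. Klhl28 had 22.9, 25 and 31.6 CPM in the transgenic and 15.5, 17.2 and 17.2 CPM in the wild-type libraries, a log2 fold change of 0.67 (SE 0.11), with transgenic replicate 3 the highest. Klhl36 had 4.10, 4.30 and 4.73 CPM in the transgenic and 2.73, 1.82 and 1.78 CPM in the wild-type libraries, the highest log2 fold change of the called Klhl genes at 1.06 (SE 0.19), from a low level. Klhl13, on the X chromosome and a partner of Klhl9 in Aurora B ubiquitylation, had 9.92, 7.18 and 10.1 CPM in the transgenic and 4.77, 5.77 and 5.06 CPM in the wild-type libraries, a log2 fold change of 0.80 (SE 0.14). All 3 transgenic libraries were above all 3 wild-type libraries for each of these 5 genes. Klhl9 itself was not called (-0.01), though with totals alone it was called higher (0.40).

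Klhl11, Klhl15, Klhl29 and Klhl18 were the remaining genes called higher. Klhl11 had 4.81, 5.13 and 6.60 CPM in the transgenic and 3.78, 3.93 and 3.55 CPM in the wild-type libraries, a log2 fold change of 0.56 (SE 0.15). Klhl15, which targets a subunit of the phosphatase PP2A, had 6.05, 6.25 and 7.004 CPM in the transgenic and 4.56, 4.98 and 4.53 CPM in the wild-type libraries, a log2 fold change of 0.45 (SE 0.12). Klhl29 had 16, 14.6 and 15.2 CPM in the transgenic and 12.9, 12.1 and 12.2 CPM in the wild-type libraries, a log2 fold change of 0.30 (SE 0.08). None of these 3 overlapped between genotypes. Klhl18, an adaptor for Aurora A, had 19.3, 18.2 and 19.2 CPM in the transgenic and 15.9, 16.2 and 16.96 CPM in the wild-type libraries, a log2 fold change of 0.21 (SE 0.08). Its call ended in 5 of the 6 fits that left out a library, the values lying between 0.19 without wild-type replicate 1 and 0.24 without transgenic replicate 1; the exception was transgenic replicate 2.

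Among the 17 tested Klhl genes not called, several are adaptors with well-studied targets. Klhl12, which acts on Dishevelled and Sec31, had a log2 fold change of 0.02 (SE 0.07), Klhl20, which acts on Ulk1, had 0.07 (SE 0.09), and Klhl22, which acts on Depdc5, had 0.03 (SE 0.07). With totals alone all 3 were called higher (0.43, 0.49 and 0.44). Klhl24, whose human counterpart is mutated in a skin fragility disease, was the most abundant of these 17 per length after Klhl40, at 178 to 199 CPM in the transgenic and 199 to 212 CPM in the wild-type libraries, with a log2 fold change of -0.13 (SE 0.06). Klhl2 (-0.04) and Klhl3 (-0.88), which act on the WNK kinases, were both below 0, though Klhl2 and Klhl24 were called higher with totals alone (0.37 and 0.28). Klhl3 stood at 0.455 to 0.694 CPM in the transgenic and 0.488 to 1.39 CPM in the wild-type libraries. Klhl25, Klhl26 and Klhl42 had log2 fold changes of -0.27, 0.15 and -0.30, and with totals alone Klhl25 (0.14) and Klhl42 (0.11) were above 0. Klhl6, a B-cell adaptor, had -0.59, while Klhl4 had -0.48 and Klhl5 -0.30. Without wild-type replicate 3, Klhl3 (-1.20), Klhl4 (-0.65) and Klhl5 (-0.38) were called lower, as was Klhl42 without wild-type replicate 2 (-0.41). With all 6 libraries Klhl5 was also called lower with upper-quartile factors (-0.29), limma-voom (-0.31) and filterByExpr (-0.28), and with totals alone its sign turned (0.11, not called). Klhl10, known from spermatids, had 68 counts in all from transgenic and 27 from wild-type muscle, a scaled ratio of 2.04 (95% exact binomial interval 1.29 to 3.31, covering counting error only). The log2 fold change of Klhl10 was 1.04 and not called, although it was called higher with totals alone (1.46), with edgeR's filterByExpr (1.06), with no filter beyond 1 count (1.10) and without transgenic replicate 2 (1.30). Klhl32 had 16 counts in the transgenic and 9 in the wild-type libraries, and Klhl35 had 20 and 7 in the same order, and neither was called (0.48 and 1.22 on the log2 scale).

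**Figure D3:**
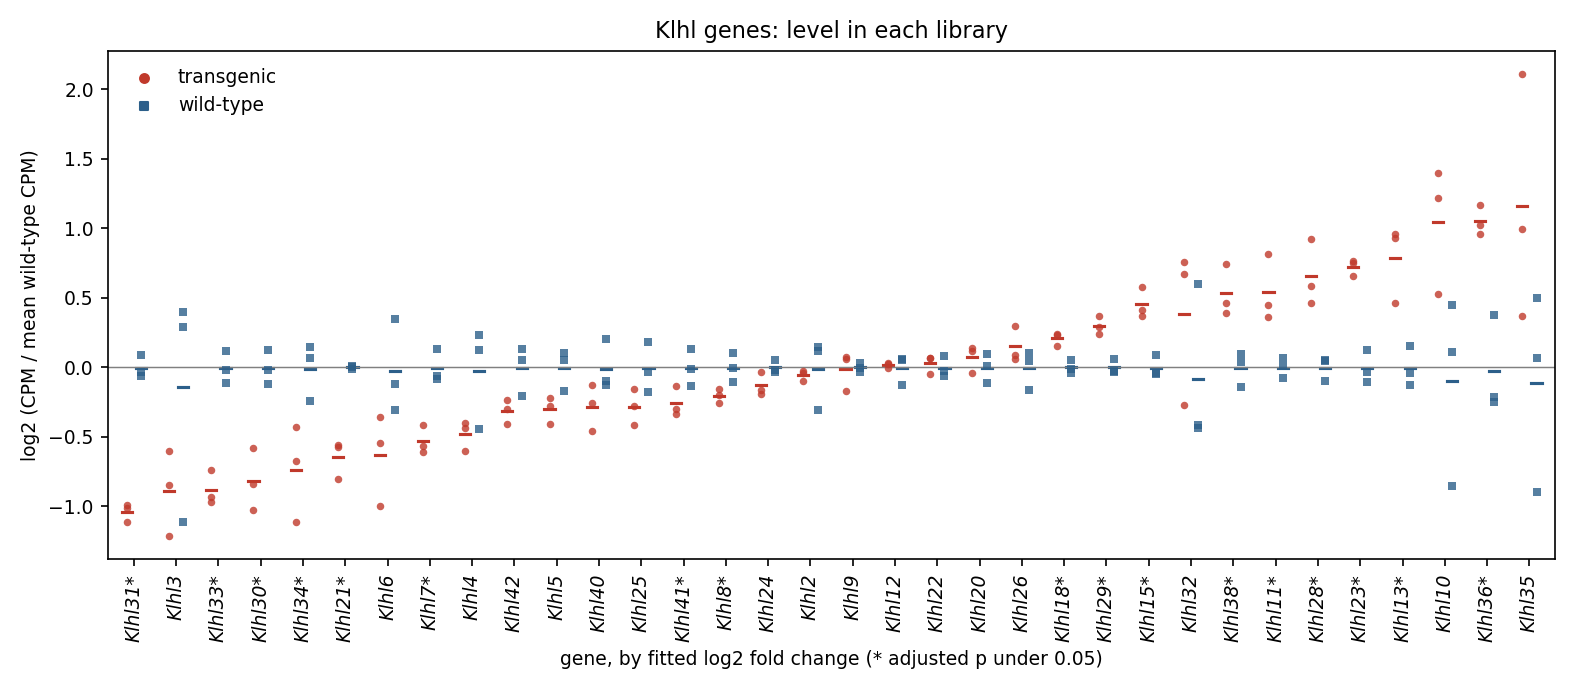
Level of each of the 34 tested Klhl genes in each library, as log2 of its CPM over the mean wild-type CPM, with genes ordered by fitted log2 fold change and short bars at the group means (circles transgenic, squares wild-type). Klhl31, at 206 to 224 CPM in the transgenic and 428 to 474 CPM in the wild-type libraries, lies at the left end. Low-count genes such as Klhl3, Klhl10, Klhl32 and Klhl35 show the widest spread. The scale is TMM. With totals alone 4 of these genes are called lower and 18 higher, beside 1452 lower and 9015 higher of all 21782 genes.

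The Kbtbd genes split evenly. Kbtbd12 (chromosome 6, 88545114 to 88637950) had 15.9, 14.9 and 18.8 CPM in the transgenic and 41.5, 48.04 and 41.6 CPM in the wild-type libraries, a log2 fold change of -1.40 (SE 0.09), the lowest of the 59 tested members other than Asb17. The authors' deposited table lists Kbtbd12 at -1.09. Kbtbd13, the nemaline myopathy gene, had 28.9, 29.96 and 27.3 CPM in the transgenic and 29.9, 34.97 and 35.2 CPM in the wild-type libraries, and the groups overlapped. Its log2 fold change of -0.22 (SE 0.08) was just past the threshold and lost its call without each transgenic library in turn (-0.18, -0.21 and -0.16 for replicates 1 to 3), without wild-type replicate 2 (-0.18) and without wild-type replicate 3 (-0.18). With totals alone Kbtbd13 was called higher (0.20).

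Kbtbd11, known from adipocyte differentiation, had 8.52, 8.40 and 8.31 CPM in the transgenic and 2.69, 1.35 and 2.49 CPM in the wild-type libraries. Its log2 fold change of 1.99 (SE 0.20) was the highest of all members, and the 3 transgenic libraries were nearly level. Of the 7137 exonic bases of Kbtbd11, 1772 are shared with a gene on the other strand. Fragments of the pair cannot be told apart there, and counts per gene do not show how many fell there. Kbtbd2, which directs the breakdown of the p85 subunit of phosphoinositide 3-kinase, had 31.1, 33.9 and 36.4 CPM in the transgenic and 28.8, 26.1 and 28.1 CPM in the wild-type libraries, a log2 fold change of 0.29 (SE 0.08), and shares 223 exonic bases with another gene. Kbtbd4 had 22.5, 24.9 and 24.03 CPM in the transgenic and 25.2, 26.6 and 26.9 CPM in the wild-type libraries, with a log2 fold change of -0.14 (SE 0.07) that was not called, and with totals alone it was called higher (0.28). Of its 3139 exonic bases, 1745 are shared with Ptpmt1 and Ndufs3 on the other strand, so its counts cannot be told apart from theirs there. Kbtbd3 had 7.09, 7.64 and 8.31 CPM in the transgenic and 7.46, 7.47 and 6.75 CPM in the wild-type libraries (0.09, SE 0.11), and overlapped. Kbtbd7 (0.07), which acts on Tiam1, and Kbtbd8 (-0.10), which acts on Tcof1 and Nolc1, were not called.

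On the TMM scale, level and direction went together among the members. At a mean over the 6 libraries of at least 10 CPM per kilobase, a value chosen after the levels were seen, 16 of 22 members were called lower and 2 higher. Below it, 6 of 37 were lower and 13 higher. All tested genes showed the same tilt, with 44.3% lower and 23.4% higher of 3552 genes at or above this level, and 15.0% lower and 17.9% higher of 18161 below it, counting genes with an exon length. Within the Asb family, 8 of 9 genes at or above the level were lower and none was higher by edgeR, while below it 4 were lower and 4 higher.

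**Figure D4:**
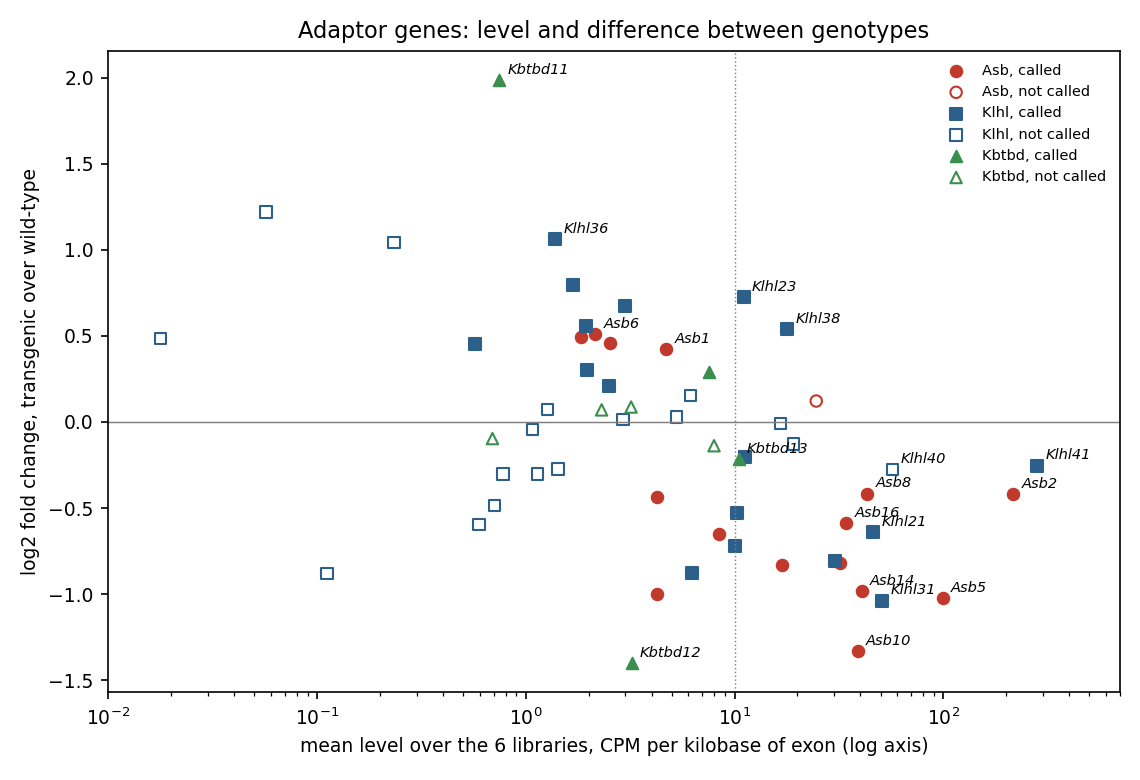
Log2 fold change of each tested member, transgenic over wild-type, against its mean level over the 6 libraries in CPM per kilobase of exon on a log axis, with filled symbols for called genes, a dotted line at 10 CPM per kilobase, and Asb17 left out. To the right of the line 16 members are called lower and 2 higher, on the TMM scale. To its left 13 are called higher and 6 lower, the 6 including Asb17. Among all tested genes 44.3% are lower and 23.4% higher at or above this level, and 15.0% lower and 17.9% higher below it.

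Several members lie near each other in the genome, and neighbours did not always go the same way. Klhl30 (lower) and Asb1 (higher) are 178127 bases apart on chromosome 1, and Klhl41 (lower) and Klhl23 (higher) are 137713 bases apart on chromosome 2. Klhl7 and Asb10, both lower, are 371904 bases apart on chromosome 5. Klhl10 and Klhl11, on opposite strands of chromosome 11, are separated by 5591 bases, and Klhl11 alone of that pair was called, higher.

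RefSeq promoters were at hand for 54 of the 63 members, as 72 windows of the 250 bases before an annotated start. The MEF2 consensus, searched by name on both strands, occurred in windows of 8 of the 20 genes called lower, in 0 of 12 called higher and in 0 of 20 tested genes not called, and in 2.92% of all 32851 promoters. By window this was 8 of 26, 0 of 19 and 0 of 25. The genes were Asb5, Asb12, Asb14, Asb16, Asb18, Kbtbd12, Klhl33 and Klhl41, 7 of which are printed above, the match of Asb14 lying within an annotated exon. In Asb14, Asb16, Asb18 and Kbtbd12 the match overlaps a TATAAA sequence, which by itself occurred in 12.4% of all promoters. The 3 identical matches of Asb16, Asb18 and Kbtbd12 begin 58, 11 and 91 bases before the start. These matches describe the letters in the windows and not binding.

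Other short sequences were counted in the same windows. E-boxes (CANNTG) were found in 19 of 26 windows of genes called lower and 9 of 19 of genes called higher, beside 66.2% of all promoters, and the variant CAGCTG in 5 of 26 and 3 of 19, beside 13%. AAGGTCA, the half-site of the estrogen-related receptors that partner PGC-1 proteins, was found in 1 window, that of Asb16, beside 4.08% of all promoters. CArG boxes, the sites of serum response factor, were found in 2 of 26 windows of genes called lower, both of Asb genes. They were in 0 of 19 windows of genes called higher and 0 of 25 of genes not called, beside 1.47% of all promoters. The median GC content was 50.0% for 17 windows of 12 Asb genes called lower, beside 52.4% for all promoters. It was 63.6% for the 4 windows of 3 Asb genes called higher. The Klhl windows did not differ in this way, with medians of 54.8% for 7 windows of genes called lower and 55.6% for 14 windows of genes called higher.

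The ligase parts that these adaptors bind were measured in the same fit. Among all genes 19.8% were lower and 18.8% higher, and with totals alone 1452 of 21782 were lower and 9015 higher. Of 6 genes of the Cul5 complex, 3 were lower and 1 higher. Cul5 stood at 153, 155 and 162 CPM in the transgenic and 152, 155 and 153 CPM in the wild-type libraries, with a log2 fold change of 0.03 (SE 0.06) that did not pass. Rnf7, its RING protein, was at -0.31 (adjusted p = 0.00985, edgeR), Arih2, a partner ligase that primes substrates, at -0.51 (adjusted p = 3.06e-05), and Ube2f, which loads Nedd8 onto Cul5, at -0.56 (adjusted p = 8.07e-05). Of the elongins, Eloc was higher at 0.51 (adjusted p = 1.39e-04) and Elob, which did not pass, had 0.05. For each of the 4 called genes, all 3 transgenic libraries lay on the same side of all 3 wild-type libraries. With totals alone none of the 3 lower calls held, and Cul5 was called higher at 0.44.

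Cul3, the scaffold of the Kelch proteins, stood at 199.8, 208 and 196 CPM in the transgenic and 448, 416 and 414 CPM in the wild-type libraries. Its log2 fold change was -1.08 (SE 0.06, adjusted p = 1.38e-08, edgeR), lower in 3 of 3 libraries, and -0.67 with totals alone. Arih1 was also lower at -0.54 (adjusted p = 2.74e-06; -0.13 with totals alone), while the RING protein Rbx1 (0.35, adjusted p = 0.00195) and Ube2m (0.43, adjusted p = 2.54e-04), the Nedd8-conjugating enzyme of the Rbx1 cullins, were higher. All 4 calls held with totals alone.

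Among 11 genes of the Nedd8 cycle and cullin exchange, 1 was lower and 4 higher (1 and 10 with totals alone), beside 19.8% and 18.8% among all genes. Dcun1d1, which helps Nedd8 onto cullins, was lower at -0.86 (SE 0.10), and Uba3 (0.37), Cand1 (0.36) and Nedd8 (0.30) were higher. The muscle-enriched exchange factor Cand2 had -0.04 and did not pass. Of 10 subunits of the COP9 signalosome, which removes Nedd8, 1 was lower and 5 higher (0 and 10 with totals alone), the higher ones being Cops6 (0.66), Cops3 (0.52), Gps1 (0.43), Cops2 (0.42) and Cops7a (0.40). The median log2 fold change was 0.08 for the Nedd8 list and 0.25 for the COP9 list, beside -0.0012 for all genes. For the Cul5 and Cul3 lists it was -0.14 and -0.10.

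**Figure D5:**
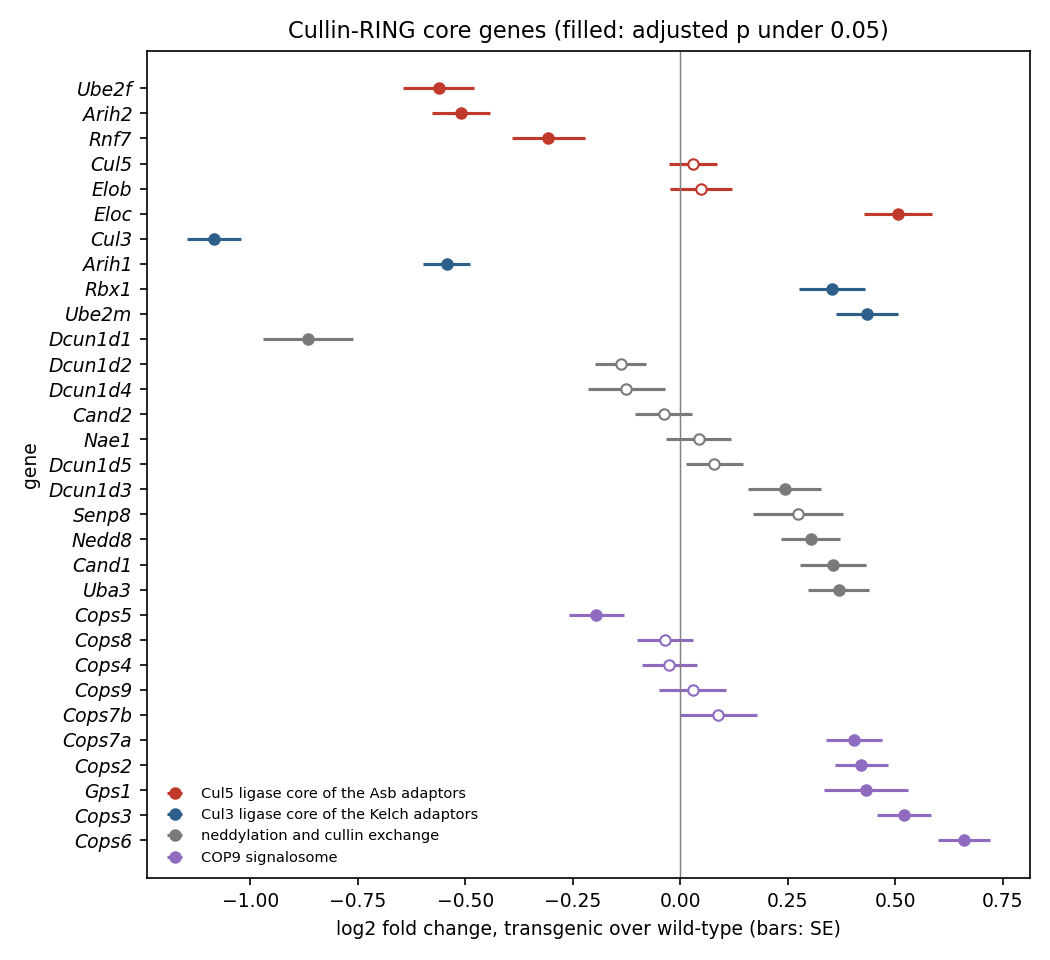
Log2 fold change, transgenic over wild-type, of the genes of the Cul5 complex, the Cul3 complex, the Nedd8 cycle and the COP9 signalosome, with bars for 1 SE and filled circles for an adjusted p under 0.05, on the TMM scale. Cul3 lies at -1.08 and Cul5 at 0.03. With totals alone the medians of these 4 lists are 0.27, 0.32, 0.49 and 0.66, beside 0.41 for all genes.

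Adaptors of the same ligases outside the 3 families were mixed. Their counts stand beside 19.8% lower and 18.8% higher among all genes (1452 and 9015 of 21782 genes with totals alone). Of 16 other SOCS box genes, 4 were lower and 3 higher (0 and 7 with totals alone), with Socs6 (-0.53), Wsb2 (-0.32) and Socs7 (-0.32) lower and Socs4 (0.43) higher. Cish, a target and inhibitor of cytokine signalling, had a log2 fold change of -2.61 that did not pass, and wild-type replicate 1 held 57.8 CPM and the other wild-type libraries 9.38 and 6.53 CPM. Of 8 other Kelch genes, 4 were lower and 0 higher by edgeR (1 and 3 with totals alone; 0 of the other 4 had an unadjusted p under 0.05): Keap1 (-0.56), the sensor that holds Nrf2, Ivns1abp (-0.27), and Klhdc2 (-0.34) and Klhdc3 (-0.32), which lack a BTB domain and work with Cul2. Of 22 BTB genes without Kelch repeats, 9 were lower and 2 higher (3 and 12 with totals alone). Spop, a nuclear Cul3 adaptor, was at 154, 154 and 159.8 CPM in the transgenic and 323, 352 and 329 CPM in the wild-type libraries (-1.10, SE 0.06), and Rhobtb3 had -1.20 and Btbd6 -0.63. Btbd9 was higher, at 36.2, 35.5 and 34.7 CPM in the transgenic and 14.7, 14.5 and 15.98 CPM in the wild-type libraries (1.24, SE 0.07).

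Of 22 genes for reported substrates or partners of the members, 10 were lower and 2 higher (2 and 8 with totals alone), beside 19.8% and 18.8% among all genes. Transcript levels say nothing of protein turnover. Among partners of Asb2, filamin A (Flna) was at -0.50 and desmin (Des) at -0.51, with desmin at 2866, 2633 and 2815 CPM in the transgenic and 3679, 4308 and 3841 CPM in the wild-type libraries. The partners of Klhl40, named here for their role after their values were seen, were lower as well, with nebulin (Neb) at 5917, 6008 and 4801 CPM in the transgenic and 7697, 7914 and 7859 CPM in the wild-type libraries (-0.49, SE 0.08) and leiomodin-3 (Lmod3) at -0.57 (SE 0.13). Filamin C (Flnc) had -0.45 (SE 0.17) and did not pass. Tiam1, a target of Kbtbd7 and Kbtbd6, was at 5.17, 6.65 and 5.16 CPM in the transgenic and 24.4, 22.7 and 15.4 CPM in the wild-type libraries (-1.88, SE 0.19), and Tcof1, a target of Kbtbd8, was at -0.64 (SE 0.07). Wnk1 (-0.06), Depdc5 (0.20) and Acly (-0.04), targets of other Kelch proteins, did not pass. With totals alone Flna (-0.09), Des (-0.09), Neb (-0.08) and Lmod3 (-0.15) were not called, while Tiam1 (-1.47) and Tcof1 (-0.23) stayed lower. On that scale Wnk1 (0.35), Depdc5 (0.61) and Acly (0.38) were called higher.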

How the data were processed

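RNA was extracted with Trizol from frozen, pulverised gastrocnemius, per the labels' protocols. Per the submitters' processing notes, the authors used STAR 2.5.0a, GRCm38.p6, featureCounts 2.0.0 and DESeq2, whose version is not given in the sources used here. The deposited table holds raw fragment counts, made without strand and with fragments counted for every gene they overlap, per the file headers. The authors' deposited table of comparisons holds log2 fold changes and p-values for 3614 genes.

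Names came from GENCODE vM21 (51718 of 51911 identifiers). The members, lists and named-gene rule (called members of at least 1 CPM in 1 genotype by fold change, the 5 most abundant per family, the nemaline genes, and up to 4 called genes per list by p) were chosen with earlier results of these data known. Genes with at least 10 summed counts were fitted by edgeR 4.0.16 in R 4.3.3 (TMM, robust quasi-likelihood F test, genotype alone), with Benjamini-Hochberg adjustment over 21782 genes at 0.05. SE is the absolute log2 fold change over the square root of F. A floor of 3 counts was 0.0802 to 0.133 CPM. The biological coefficient of variation was 10.9%. The fits were also run on simulated data with few changed genes and no shift of scale between genotypes. That run says nothing of the choice of scaling. Alternatives were other scalings and filters, DESeq2 1.42.0, limma-voom (limma 3.58.1), a replicate block, members sharing exons left out, and each library left out. No 2 libraries of a genotype agreed within sampling noise.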

Additional observations from a re-analysis of the deposited data

How the results depend on the processing

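With library totals alone in place of TMM, 4 Klhl genes were called lower and 18 higher, 1 Kbtbd gene lower and 6 higher, and of all genes 1452 lower and 9015 higher, against 4313 and 4087; Asb counts were 9 lower and 5 higher. That scaling reversed the log2 fold changes of 12 members. Of these, 7 were called on at least 1 of the scales, namely Kbtbd4 (0.28), Kbtbd13 (0.20), Klhl2 (0.37), Klhl8 (0.21), Klhl9 (0.40), Klhl24 (0.28) and Klhl41 (0.16), and 5 on neither, namely Klhl5 (0.11), Klhl25 (0.14), Klhl40 (0.14), Klhl42 (0.11) and Kbtbd8 (0.32). Members near 0 and not called also turned. Klhl9 stood at 0.0086 with DESeq2 size factors, 0.0088 with DESeq2, 0.0094 with filterByExpr, 0.049 with no filter beyond 1 count and 0.019 with at least 1 CPM in 3 libraries, and Klhl2 at 0.010 with no filter beyond 1 count. With each library left out, Klhl9 ranged over -0.034 to 0.11, Klhl2 over -0.19 to 0.035, Kbtbd8 over -0.14 to 0.033, Klhl12 over -0.042 to 0.071 and Klhl22 over -0.0025 to 0.11. Kbtbd genes called lower numbered 1 with DESeq2 size factors, totals alone, DESeq2's Wald test, no robust estimation, filterByExpr, no filter beyond 1 count, and at least 1 CPM in 3 libraries, the call lost being that of Kbtbd13. With members sharing exons left out, 0 Kbtbd genes were called higher by edgeR, since Kbtbd2 and Kbtbd11 both share exons. Leaving out each library gave 11 to 12 lower and 4 higher Asb genes, 6 to 10 lower and 8 to 10 higher Klhl genes, 1 to 2 lower and 2 higher Kbtbd genes, and 3446 to 3932 lower and 3514 to 4149 higher genes in all. Of 37 called members, 32 kept their call in every one of these fits that tested them, Asb17 being tested in 5 of the 6.

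Same-numbered libraries of the 2 genotypes deviated from their group means with correlations of 0.03, -0.06 and -0.22 across genes, so the numbers were not taken to pair them. With the replicate number as a block 12 Asb genes were lower and 4 higher, 8 Klhl lower and 8 higher, and 2 Kbtbd lower and 2 higher. Of all 21782 genes in that fit, 4273 were lower and 3992 higher. The one call lost among members was that of Klhl18 (0.21).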

Other observations

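The authors' deposited table lists 20 of the members, 15 lower and 5 higher, among them 9 Asb genes, all lower. It holds no absolute log2 fold change as small as the edgeR values of Asb1, Asb3, Asb6 and Asb7 (0.43 to 0.51). The same held for Asb2, Asb8 and Asb13 (-0.43 to -0.42), so the absence of these genes says nothing of their direction. For most of the 20 members listed, the authors' log2 fold change was close to the edgeR value, for example -1.31 against -1.33 for Asb10 and 0.74 against 0.73 for Klhl23. For Kbtbd12 it was -1.09 against -1.40, and for Asb17, with 16 counts in all, -0.83. Klhl28 (0.67 in the edgeR fit) is not among the genes listed there. Klhl10 is listed at 0.87 with the authors' adjusted p of 0.0782, and it was not called by edgeR's quasi-likelihood test either (1.04).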
